A study of Arabidopsis thaliana with 18 samples.

Results

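GH3.1 (AT2G14960), GH3.3 (AT2G23170), GH3.17 (AT1G28130) and WES1 (AT4G27260, also known as GH3.5) are 4 genes of the GH3 family of Arabidopsis thaliana. The enzymes of these 4 genes join the auxin indole-3-acetic acid to amino acids. The 4 genes were taken by the single gene that the platform annotation pairs with each of their probe sets. They are 4 of the 13513 probe sets with 1 annotated gene, and of 22746 probe sets other than controls. All 4 passed the filter on low values, which kept a probe set where at least 2 arrays reached a log2 signal of 5.

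RNA of GFP-sorted root protoplasts was profiled on 18 Affymetrix ATH1 arrays, each zone sample from many pooled roots. The ARR5::GFP group (2 arrays) came from 6-day seedlings, untreated, and its cells came from the lower part of undissected roots and are labelled procambium with lateral root cap. The other 16 arrays came from 8-day seedlings carrying ARR15::GFP, whose roots were cut in 3 along their length: the basal piece gave cambium, the middle piece transition cambium and the apical piece procambium. BAP-treated seedlings, which spent 48 h on medium with 100 nM of this synthetic cytokinin after 6 days without it, gave 3 arrays of each zone. Untreated seedlings gave 3 arrays of cambium, 2 of transition cambium and 2 of procambium. All groups were wild type Columbia with an ER-localized GFP driven by the ARR5 or ARR15 promoter, both of type-A response regulators, a class of genes switched on by cytokinin. The reporter that selects the cells is therefore of a class that responds to the treatment, and a change in which cells passed the sort cannot be told apart from a change within a cell. In these sorted samples fewer cells of a type and less RNA per cell cannot be told apart either. The labels name no batch, and a batch of plants cannot be told apart from the treatment.

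Auxin in the root is held at its local level by synthesis, transport and inactivation. GH3 enzymes that act on auxin belong to the last of these. Some of the conjugates they form can be hydrolysed back to free auxin, whereas the aspartate and glutamate conjugates are routed to breakdown. Several GH3 genes are themselves induced by auxin, which closes a feedback loop, and cytokinin and auxin act on each other in the vascular tissue of the root. GH3.17 is known for conjugating auxin to glutamate, and WES1 accepts salicylic acid as well as auxin.

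The labelled tissue was checked on 4 of 9 listed genes of cambium and procambium that have a probe set used here. All 4 reached log2 5 on every array of BAP-treated and untreated cambium. In ARR5::GFP cells, BAP-treated procambium and untreated procambium, MOL1 (6.92 to 7.66) and LHW (6.07 to 8.33) were above log2 5 on every array, and CLE44, a peptide gene of vascular tissue, was below it on every array. CLE41, another such peptide gene, was below log2 5 on both ARR5::GFP arrays, above it on all 3 BAP-treated procambium arrays and above it on 1 of the 2 untreated procambium arrays. The root cap list has 1 of 4 genes with such a probe set, AT1G65570. Its signal was 13.81 and 14.21 in ARR5::GFP cells, 10.34, 11.50 and 11.004 in BAP-treated procambium, and 2.94 and 3.75 in untreated procambium. BAP-treated procambium therefore carried this root cap signal on all 3 arrays and untreated procambium on neither. In BAP-treated transition cambium it was 3.83, 7.65 and 3.49, and it stayed below log2 5 on every other array. Its part in the results on the procambium and transition zones was not tested. The lists for xylem, phloem and endodermis have no probe set used here. ARR15 itself rose with BAP in every zone, with levels of 5.32 to 7.66 over the 9 BAP-treated arrays and 2.51 to 3.12 over the 7 untreated arrays.

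The 4 genes had different profiles over the 7 groups. GH3.17 was brightest in ARR5::GFP cells, lowest in untreated cambium and higher with BAP. WES1 was also brightest in ARR5::GFP cells and was lower with BAP. GH3.3 had its highest levels in cambium and was higher there than in procambium, both with and without BAP. GH3.1 lay below log2 5 on 8 of the 18 arrays and had the largest SD within groups of the 4. Levels below are log2 GCRMA signals of one probe set, which can be set against each other across groups but not between genes.

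**Figure D1:**
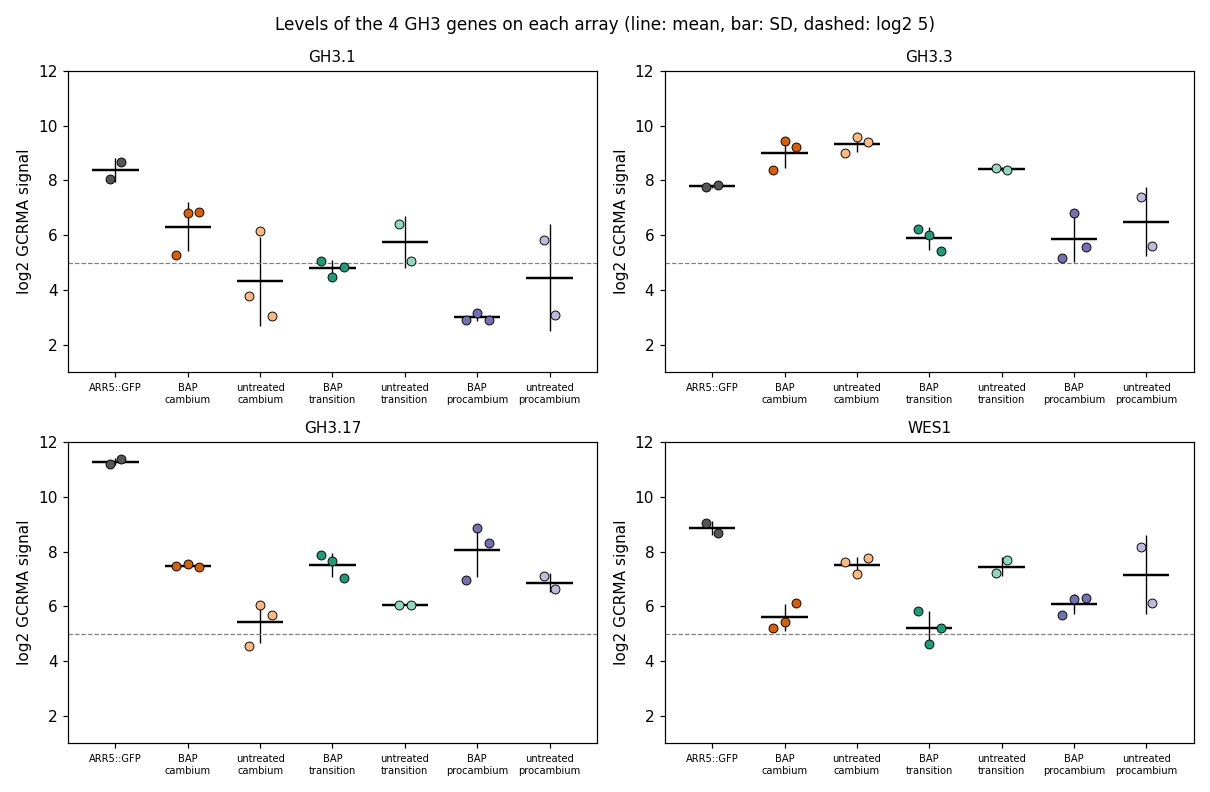
Log2 GCRMA signal (vertical axes) of GH3.1, GH3.3, GH3.17 and WES1 on each of the 18 arrays, by group, with a line at the group mean, a bar for the SD and a dashed line at log2 5. GH3.17 reached a mean of 11.27 in ARR5::GFP cells, GH3.3 stayed above 8.3 on all 6 cambium arrays, and WES1 was lower in BAP-treated than in untreated cambium and transition cambium with no overlap.

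GH3.17, the glutamate-conjugating enzyme, rose with BAP. In cambium its signal was 7.47, 7.54 and 7.42 with BAP and 4.56, 6.04 and 5.70 without. In transition cambium it was 7.89, 7.65 and 7.03 with BAP and 6.05 and 6.06 without. Every BAP-treated array of these 2 zones lay above every untreated one. In procambium it was 6.98, 8.85 and 8.31 with BAP and 7.11 and 6.63 without, and here the groups overlapped, since BAP-treated replicate 1 fell between both untreated arrays. The BAP effect in cambium was 2.04 on the log2 scale (SE 0.45), a 4.12-fold higher signal, with an adjusted p of 0.00792 by limma. It was 1.47 (SE 0.50, adjusted p = 0.0817) in transition cambium and 1.17 (SE 0.50, adjusted p = 0.146) in procambium, neither of which passed the threshold of 0.05. In procambium the effect passed without BAP-treated replicate 1, at 1.71 with an adjusted p of 0.0197. Averaged over the 3 zones the effect was 1.56 (SE 0.28, adjusted p = 0.000829), and it passed without any single array.

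WES1, the enzyme that also accepts salicylic acid, moved the other way. In cambium its signal was 5.23, 5.43 and 6.14 with BAP and 7.61, 7.17 and 7.75 without. In transition cambium it was 5.85, 4.61 and 5.21 with BAP and 7.21 and 7.70 without. In both zones every BAP-treated array lay below every untreated array. In procambium it was 5.67, 6.29 and 6.32 with BAP and 8.18 and 6.14 without, so that 2 of the 3 BAP-treated arrays lay between both untreated ones. WES1 fell by 1.91 in cambium (SE 0.47, adjusted p = 0.0143), a 3.76-fold lower signal, and fell by 2.23 in transition cambium (SE 0.52, adjusted p = 0.0153), a 4.69-fold lower signal. The difference in procambium was -1.07 (SE 0.52, adjusted p = 0.208). Averaged over zones WES1 fell by 1.74 (SE 0.29, adjusted p = 0.000501), and this held without any single array. The calls in single zones rested on few arrays. The cambium call was lost without BAP-treated replicate 1 (adjusted p = 0.0643). The transition cambium call was lost without untreated replicate 1 (0.0504), untreated replicate 2 (0.135) or BAP-treated replicate 2 (0.0567). Without untreated procambium replicate 2, the difference in procambium was -2.09 with an adjusted p of 0.0197.

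GH3.3, another auxin-conjugating enzyme, was lower with BAP in the middle of the root. In transition cambium its signal was 6.24, 6.01 and 5.41 with BAP and 8.46 and 8.37 without, with no overlap. In cambium it was 8.39, 9.45 and 9.20 with BAP and 8.99, 9.58 and 9.40 without, and the groups overlapped. In procambium it was 5.18, 6.80 and 5.57 with BAP and 7.39 and 5.60 without, again with overlap. GH3.3 fell by 2.53 in transition cambium (SE 0.53, adjusted p = 0.00837), a 5.77-fold lower signal. This call was lost without untreated transition cambium replicate 1 (adjusted p = 0.0579) or replicate 2 (0.0593). The differences of -0.31 (SE 0.48) in cambium and -0.65 (SE 0.53) in procambium had adjusted p-values of 0.708 and 0.484. Averaged over zones GH3.3 fell by 1.16 (SE 0.30, adjusted p = 0.00862), which held without any single array.

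GH3.1, also an auxin-conjugating enzyme, passed the threshold for BAP in no zone. In cambium its signal was 5.28, 6.82 and 6.83 with BAP and 3.78, 6.15 and 3.04 without, the untreated replicate 2 lying among the BAP-treated arrays. In transition cambium it was 5.07, 4.46 and 4.85 with BAP and 6.41 and 5.07 without, and the nearest arrays of the 2 groups lay side by side. In procambium it was 2.92, 3.164 and 2.92 with BAP and 5.83 and 3.08 without. The differences were 1.99 (SE 0.77, adjusted p = 0.0947) in cambium, -0.95 (SE 0.86, adjusted p = 0.564) in transition cambium and -1.46 (SE 0.86, adjusted p = 0.302) in procambium. The mean over zones was -0.14 (95% interval -1.16 to 0.89, adjusted p = 0.851). Without untreated cambium replicate 2 the cambium difference was 2.90 and passed, with an adjusted p of 0.016. Both untreated cambium arrays then left (3.78 and 3.04) lay below log2 5, so the size of this difference is uncertain. The SD of GH3.1 within groups, pooled over the 16 ARR15::GFP arrays, was 1.08, larger than that of 96.7% of the 13202 probe sets tested, whose median was 0.435. The other 3 genes had pooled SDs of 0.60 to 0.65.

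**Figure D2:**
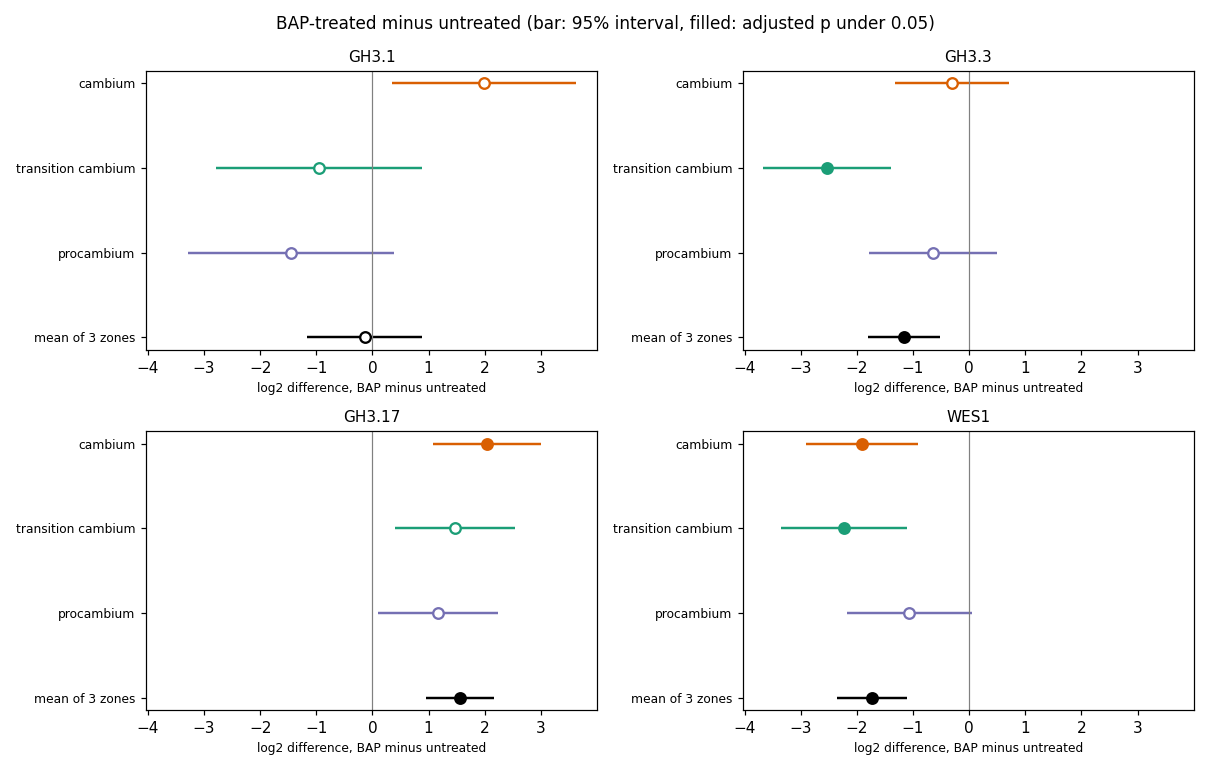
BAP-treated minus untreated log2 signal (horizontal axes) of each gene in 3 zones and as the mean of the zones, with 95% intervals from the limma fit and filled points for an adjusted p under 0.05. GH3.17 has positive values throughout (1.17 to 2.04), WES1 has negative values throughout (-1.07 to -2.23), and GH3.3 is farthest from 0 in transition cambium (-2.53).

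Counted by zone, 2 of the 4 genes passed for BAP in cambium, 1 higher and 1 lower, where 14.9% of all probe sets tested passed (7.71% higher and 7.15% lower). In transition cambium 2 of 4 passed, both lower, against 9.40% of all probe sets (4.70% lower). In procambium 0 of 4 passed by limma, against 14.1%, and 1 of the 4 (GH3.17) had an unadjusted p under 0.05 there, of 0.0341. Over the average of zones 3 of 4 passed, 1 higher and 2 lower, against 30.2% of all. These shares are of all 13202 probe sets tested in each comparison.

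Whether the BAP effect itself differed along the root was tested with an F test over the 3 zones. It passed for 0 of the 4 genes by limma, where 7.57% of all probe sets passed. The adjusted p was 0.126 for GH3.1, 0.127 for GH3.3, 0.679 for GH3.17 and 0.565 for WES1, and unadjusted it was 0.0177 for GH3.1 and 0.018 for GH3.3. None of the 12 differences between pairs of zones passed either, against 8.97% of probe sets for cambium minus procambium, 5.27% for transition cambium minus procambium and 0.371% for cambium minus transition cambium, although 4 of the 12, all of GH3.1 or GH3.3, had an unadjusted p under 0.05. GH3.1 reached log2 5 on 0 of 3 BAP-treated procambium arrays, 1 of 2 untreated procambium arrays and 1 of 3 untreated cambium arrays. The sizes that follow for GH3.1 rest largely on such dim signals and are uncertain. The BAP effect on GH3.1 was 3.44 larger in cambium than in procambium (SE 1.15, 95% interval 0.98 to 5.91, adjusted p = 0.0779). It passed without untreated cambium replicate 2 (4.36, adjusted p = 0.0167) or untreated procambium replicate 2 (4.82, adjusted p = 0.0268), and the F test of GH3.1 passed without the first of these (adjusted p = 0.0258). The BAP effect on GH3.3 was 2.22 higher in cambium than in transition cambium (SE 0.71, 95% interval 0.70 to 3.75, adjusted p = 0.353). A call in one zone and not in another is therefore not shown to be a difference between zones for any of these genes.

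Along the untreated root, GH3.3 was the gene that differed most between zones. Its 3 cambium arrays (8.99 to 9.58) and 2 transition cambium arrays (8.37 and 8.46) all lay above both procambium arrays (7.39 and 5.60). The cambium signal was 7.09-fold that of procambium (log2 2.83, SE 0.53, adjusted p = 0.00102), and this held without any single array. The transition cambium signal was 3.78-fold that of procambium (log2 1.92, SE 0.58, adjusted p = 0.0239). The transition call was lost without transition cambium replicate 1 (adjusted p = 0.108) or replicate 2 (0.0739), and without procambium replicate 2, when the difference was 1.02 (0.261). GH3.17 ran the other way: its cambium arrays (4.56 to 6.04) all lay below both procambium arrays (7.11 and 6.63). It was 2.71-fold lower in cambium than in procambium (log2 -1.44, SE 0.50, adjusted p = 0.037). This call was lost without cambium replicate 1 (adjusted p = 0.141), procambium replicate 1 (0.186) or procambium replicate 2 (0.0697). For GH3.1 and WES1 the untreated zones overlapped in each pair, and their adjusted p-values were 0.334 to 0.993.

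With BAP, GH3.3 was again highest in cambium. Its BAP-treated cambium arrays (8.39 to 9.45) lay above all BAP-treated transition cambium arrays (5.41 to 6.24) and procambium arrays (5.18 to 6.80). The signal was 8.98-fold higher in cambium than in procambium (log2 3.167, SE 0.48, adjusted p = 0.000136) and 8.74-fold higher in cambium than in transition cambium (log2 3.128, SE 0.48, adjusted p = 0.00328). Between transition cambium and procambium it differed by 0.04 (95% interval -0.98 to 1.06, adjusted p = 0.966). GH3.1 was higher in BAP-treated cambium than in BAP-treated procambium by 3.31 (SE 0.77, adjusted p = 0.00412). All 3 procambium arrays of GH3.1 lay below log2 5 (2.92, 3.164 and 2.92), so its fold is a lower bound against that level: at least 2.48-fold, or at least 1.24-fold against log2 6. These BAP-treated calls held without any single array. GH3.17 and WES1 passed between no pair of BAP-treated zones, with differences of -0.87 to 0.38 and adjusted p-values of 0.184 and above.

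By count, 2 of 4 genes passed for untreated cambium against procambium (35.8% of all probe sets), 1 of 4 for untreated transition cambium against procambium (28.2%) and 0 of 4 for untreated cambium against transition cambium (0.757%), where no unadjusted p was under 0.05. With BAP, 2 of 4 passed for cambium against procambium (31.0%), 0 of 4 for transition cambium against procambium (29.3%) and 1 of 4, GH3.3, for cambium against transition cambium (1.26%). In the BAP-treated transition cambium against procambium, GH3.1 had an unadjusted p of 0.0346 (log2 1.79, adjusted p = 0.096). Comparisons of the same treatment share arrays, so their counts are not independent.

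**Figure D3:**
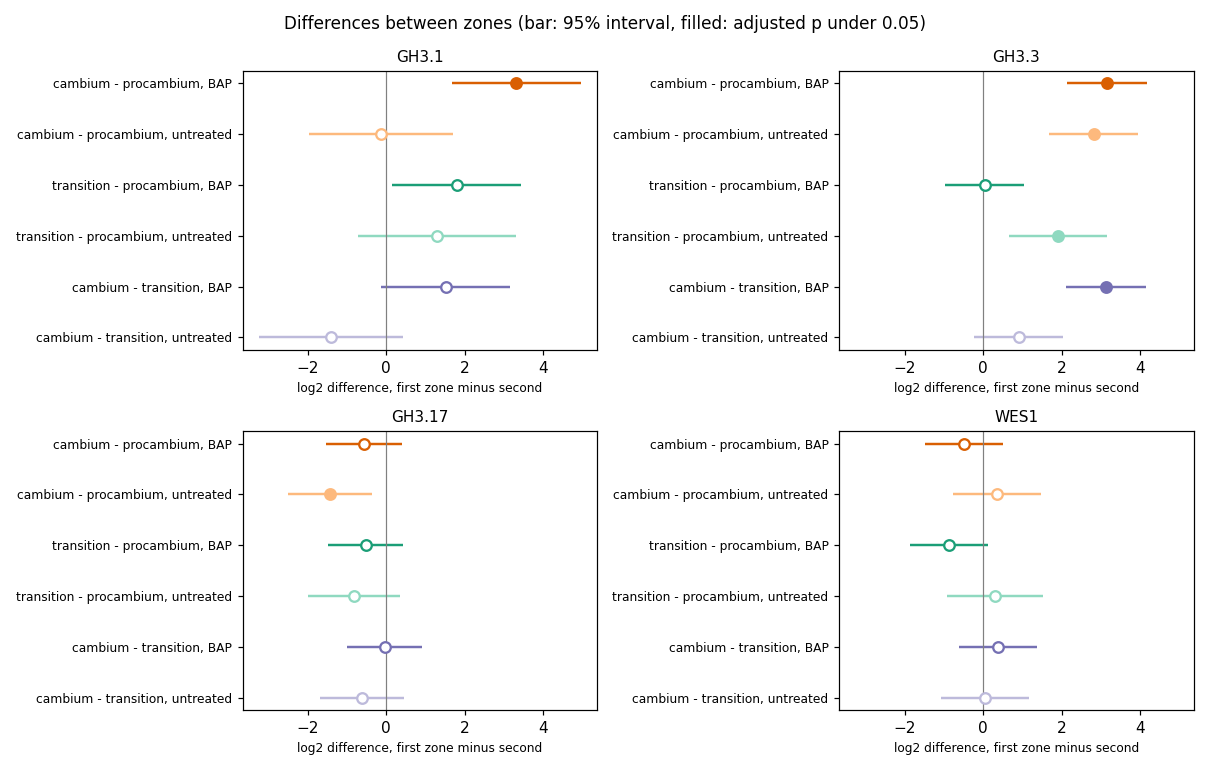
Log2 difference between zones (horizontal axes, first-named zone minus second) of each gene, BAP-treated and untreated, with 95% intervals from the limma fit and filled points for an adjusted p under 0.05. GH3.3 has 4 filled points, all higher toward the base of the root (1.92 to 3.167), GH3.1 and GH3.17 have 1 each, and WES1 has none.

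ARR5::GFP cells, which the labels give as procambium with lateral root cap, had the highest group mean of 3 of the 4 genes. Reporter, age and dissection all differ between these cells and the ARR15::GFP zones and cannot be told apart. GH3.17 had signals of 11.19 and 11.36, above every other array of the series, the next being 8.85 in BAP-treated procambium. WES1 had 9.04 and 8.69, also above every other array. GH3.1 had 8.05 and 8.68, likewise, whereas GH3.3 had 7.75 and 7.82, below all cambium arrays.

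Against untreated procambium, GH3.17 was 21.2-fold higher in ARR5::GFP cells (log2 4.40, SE 0.53, adjusted p = 1.74e-05). GH3.1 was higher by 3.91 on the log2 scale (SE 0.91, adjusted p = 0.00395), with 1 of the 2 procambium arrays below log2 5, and WES1 was 3.26-fold higher (log2 1.70, SE 0.56, adjusted p = 0.0288). GH3.3 differed by 1.29 (SE 0.57, adjusted p = 0.0964). So 3 of 4 genes passed, all higher, where 31.5% of all probe sets passed in either direction and 14.0% higher. The GH3.17 call held without any single array. The other calls depended on 1 array of untreated procambium or ARR5::GFP cells. Without procambium replicate 2, GH3.1 differed by 2.54 (adjusted p = 0.0806) and WES1 by 0.68 (0.417). WES1 also failed without ARR5::GFP replicate 1 (0.114) or replicate 2 (0.0734). GH3.3 passed without procambium replicate 1, with a difference of 2.18 (0.0126).

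Against BAP-treated procambium, which has 3 arrays, all 4 genes were higher in ARR5::GFP cells, where 31.4% of all probe sets passed and 13.6% passed higher. GH3.17 was 9.38-fold higher (log2 3.23, SE 0.49, adjusted p = 0.000146), WES1 6.83-fold (log2 2.77, SE 0.51, adjusted p = 0.000764) and GH3.3 3.83-fold (log2 1.94, SE 0.52, adjusted p = 0.00993). GH3.1 was at least 10.3-fold higher against log2 5 (log2 5.37, SE 0.83, adjusted p = 0.000185). In none of the 4 genes did the groups overlap. The GH3.3 call was lost without ARR5::GFP replicate 2 (adjusted p = 0.0635). Both comparisons use the same 2 ARR5::GFP arrays. The root cap gene AT1G65570 was at least 515-fold higher in ARR5::GFP cells than in untreated procambium and 8.36-fold higher than in BAP-treated procambium, and its part in these differences was not tested. The cortex and epidermis list has 2 of 5 genes with a probe set used here, and they differed. EXPA7, an expansin gene of root hair cells, had signals of 9.75 and 7.67 in ARR5::GFP cells. In BAP-treated procambium it had 2.39, 5.78 and 7.37, and in untreated procambium 2.64 and 3.01. The other gene, AT1G62500, stayed below log2 5 in these groups, at 2.17 on both ARR5::GFP arrays and 2.17 to 2.43 in BAP-treated procambium. The part of such cells was not tested.

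The order of the group means followed from these differences, and many neighbours in it lay within their spread. For GH3.17 the order was ARR5::GFP cells (11.27 ± 0.13, SD, n = 2), BAP-treated procambium (8.04 ± 0.96, n = 3), BAP-treated transition cambium (7.52 ± 0.44, n = 3), BAP-treated cambium (7.48 ± 0.06, n = 3), untreated procambium (6.87 ± 0.34, n = 2), untreated transition cambium (6.06 ± 0.01, n = 2) and untreated cambium (5.43 ± 0.77, n = 3). Neighbours among the 3 BAP-treated groups overlapped, and the gap between both lowest groups (0.62) was smaller than the larger SD of that pair. For WES1 the order was ARR5::GFP cells (8.87 ± 0.24), untreated cambium (7.51 ± 0.30), transition cambium (7.46 ± 0.35) and procambium (7.16 ± 1.44), then BAP-treated procambium (6.09 ± 0.37), cambium (5.60 ± 0.48) and transition cambium (5.22 ± 0.62). Below the ARR5::GFP cells each WES1 group overlapped the next in order.

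For GH3.3 the order was untreated cambium (9.32 ± 0.30), BAP-treated cambium (9.02 ± 0.56), untreated transition cambium (8.42 ± 0.06), ARR5::GFP cells (7.78 ± 0.05), untreated procambium (6.497 ± 1.26), BAP-treated transition cambium (5.89 ± 0.43) and BAP-treated procambium (5.85 ± 0.84). Neighbours among the 3 highest overlapped, as did those among the 3 lowest. For GH3.1 the order was ARR5::GFP cells (8.37 ± 0.44), BAP-treated cambium (6.31 ± 0.89), untreated transition cambium (5.74 ± 0.94), BAP-treated transition cambium (4.79 ± 0.31), untreated procambium (4.45 ± 1.94), untreated cambium (4.32 ± 1.62) and BAP-treated procambium (3.00 ± 0.14). Apart from the ARR5::GFP cells, no gap between neighbours in the GH3.1 order was larger than the larger SD of the pair by more than 0.01.

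The 2 untreated procambium arrays stood apart for 3 of the 4 genes. Replicate 1 lay above replicate 2 by 2.75 for GH3.1, 2.04 for WES1, 1.79 for GH3.3 and 0.49 for GH3.17. A gap at least as large in size was found in 1.14% of the 13202 probe sets for the first, 3.81% for the second, 5.78% for the third and 52.4% for GH3.17, the median gap being 0.519. Every comparison with untreated procambium carries this spread.

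Over the arrays the 4 genes did not follow one pattern. Across all 18 arrays the correlation of log2 signals ran over the 6 pairs of genes between -0.24 (GH3.3 with GH3.17) and 0.52 (GH3.1 with GH3.17). Without the ARR5::GFP arrays, over 16 arrays, GH3.17 and WES1 had r = -0.59 and GH3.3 and GH3.17 r = -0.48. These values describe arrays that share groups and are no test.

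Other enzymes of the family were taken from a list of 15, of which 7 have a probe set used here and 2 reached the filter, the loci AT1G23160 and AT5G51470, which the reference table gives no other name. Both were bright in ARR5::GFP cells and in BAP-treated procambium. AT1G23160 had 10.76 and 11.14 in ARR5::GFP cells, 11.05, 11.04 and 10.63 in BAP-treated procambium, and 2.17 and 4.57 in untreated procambium. In BAP-treated transition cambium it had 9.03, 8.00 and 2.18, so that 2 arrays were bright and 1 lay at the floor, and it was below 3 on every other array. AT5G51470 had 10.32 and 10.88 in ARR5::GFP cells, 9.52, 10.36 and 10.06 in BAP-treated procambium, and 2.17 and 5.21 in untreated procambium. It too was split in BAP-treated transition cambium, at 6.71, 6.99 and 3.33.

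Both loci rose with BAP in procambium, AT1G23160 at least 59.8-fold against log2 5 (log2 7.54, SE 1.35) and AT5G51470 by 6.29 on the log2 scale (SE 0.91), with 1 of its 2 untreated arrays at the floor. Both were called in ARR5::GFP cells against untreated procambium (log2 7.58 and 6.91), and neither was called against BAP-treated procambium. Both untreated procambium arrays of AT1G23160 and 1 of the 2 of AT5G51470 lay below log2 5, so these sizes are uncertain. Of the untreated ARR15::GFP arrays, AT1G23160 reached log2 5 on none and AT5G51470 on 1. The filter therefore kept both loci through groups where they are high, and these calls are no separate support. The root cap gene AT1G65570 was likewise bright in ARR5::GFP cells and BAP-treated procambium and low in untreated procambium, and the part of root cap cells in these differences was not tested. In BAP-treated transition cambium, replicate 2 was above log2 5 for all 3 genes (8.00 for AT1G23160, 6.99 for AT5G51470 and 7.65 for AT1G65570) and replicate 3 was below it for all 3 (2.18, 3.33 and 3.49). Replicate 1 was above it for both GH3 loci (9.03 and 6.71) and below it for AT1G65570 (3.83). GH3.9, a family member with its own probe set, lay at the array floor of 2.17 on all 18 arrays.

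**Figure D4:**
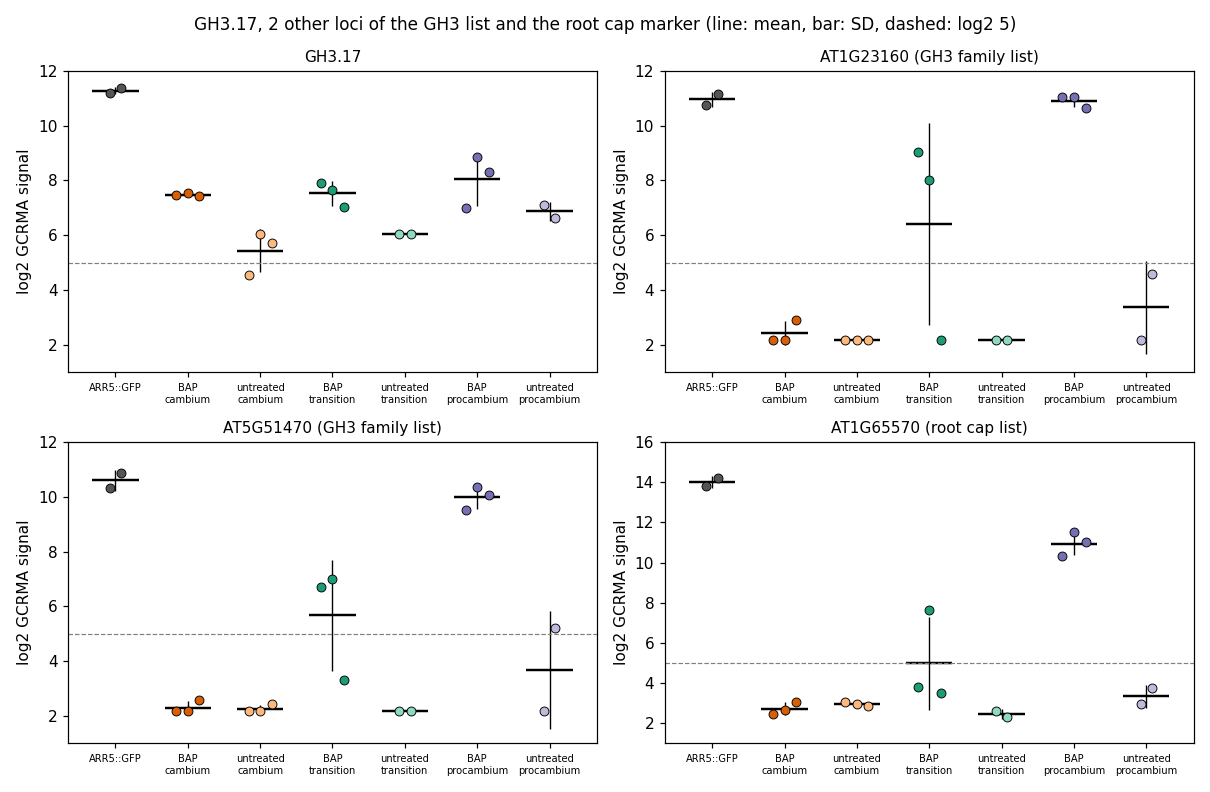
Log2 GCRMA signal (vertical axes) on each of the 18 arrays, by group, of GH3.17, of the other GH3 list loci AT1G23160 and AT5G51470, and of the root cap list gene AT1G65570, with group means, SD bars and a dashed line at log2 5. All 4 are highest or joint highest in ARR5::GFP cells, and the last 3 are bright in BAP-treated procambium and low in untreated procambium, whereas GH3.17 is above log2 6 in both.

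Auxin is also inactivated by oxidation, glycosylation and methylation. Of 6 listed genes of these routes 4 have a probe set used here and 3 reached the filter. AT1G14120, a locus of this list without another name in the reference table, rose with BAP in all 3 zones. Its signal was 10.80, 11.11 and 10.67 in BAP-treated and 8.48, 8.70 and 8.99 in untreated cambium. It was 10.74, 10.85 and 10.28 in BAP-treated and 7.47 and 6.78 in untreated transition cambium, and 7.92, 7.39 and 7.58 in BAP-treated and 3.57 and 2.17 in untreated procambium. The groups overlapped in no zone, and the BAP effects were 2.14 (SE 0.33) in cambium and 3.50 (SE 0.37) in transition cambium. In procambium the fitted effect was 4.76 (SE 0.37), but both untreated arrays lay below log2 5. Its size there is therefore uncertain, and the zones cannot be ranked by it. In ARR5::GFP cells, where 3 of the 4 GH3 genes were highest, AT1G14120 had 2.47 and 2.17, below log2 5 as in untreated procambium.

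AT1G14130, of the same list, passed for BAP in no zone and was higher in cambium than in procambium both with BAP (4.37-fold) and without (4.93-fold). UGT74D1, a glycosyltransferase acting on auxin, fell with BAP in procambium, where it had 7.94, 7.98 and 7.59 with BAP and 9.44 and 8.77 without (log2 -1.27, SE 0.30, adjusted p = 0.0112). Of 21 listed auxin synthesis genes 4 have a probe set used here and none reached the filter. The lists of auxin transport genes (15), of receptors and response factors (18) and of hydrolases of auxin conjugates (7) have no probe set used here, so the rest of the pathway was not analysed here.

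Among genes that respond to auxin, 7 of 29 Aux/IAA repressors and 3 of 6 LBD and other response genes have a probe set used here, and 3 and 2 of these reached the filter. LBD16, a transcription factor of lateral root initiation, was lower with BAP in cambium and transition cambium. Its signal was 2.85, 3.47 and 2.83 in BAP-treated and 5.85, 6.54 and 6.82 in untreated cambium, at least 2.64-fold lower (log2 -3.35, SE 0.44). It was 4.16, 4.11 and 3.1 in BAP-treated and 5.83 and 5.77 in untreated transition cambium, at least 1.74-fold lower (log2 -1.998, SE 0.50, adjusted p = 0.0209). The difference in procambium was -1.09 (SE 0.50, adjusted p = 0.176). IAA29, an auxin-response repressor, was called for BAP in procambium, with 2.31, 2.21 and 2.20 with BAP and 5.75 and 5.73 without. For the averaged BAP effect 30.2% of all probe sets passed in either direction, 2008 higher and 1976 lower. Of these lists 1 of 3 repressors and 1 of 2 other response genes passed, both lower. Both type-A response regulators with a probe set (ARR15 and ARR16, of 10 listed) passed, higher. These 2 reached log2 5 on BAP-treated arrays only, so the filter kept them through the group where they are high, and their calls are no separate support. IAA29 reached log2 5 on untreated arrays only, so the filter kept it through the arrays where it is high. Its calls for BAP are likewise no separate support. The median averaged effect was -0.65 over the 4 GH3 genes and 0.00 over all probe sets tested. It describes no shared direction, since the effects of the 4 genes were 1.56 (GH3.17), -0.14 (GH3.1), -1.16 (GH3.3) and -1.74 (WES1).

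**Figure D5:**
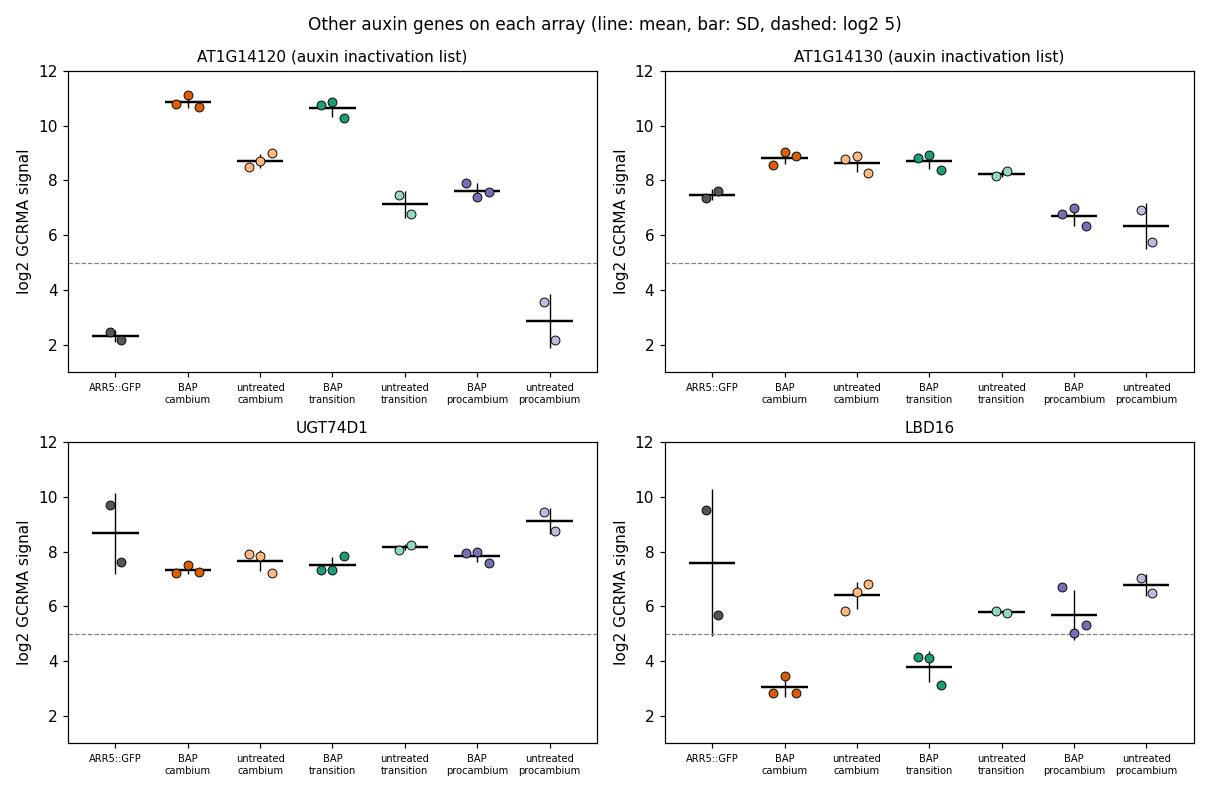
Log2 GCRMA signal (vertical axes) on each of the 18 arrays, by group, of AT1G14120, AT1G14130, UGT74D1 and LBD16, with group means, SD bars and a dashed line at log2 5. AT1G14120 is higher with BAP in every zone and below log2 5 in ARR5::GFP cells and untreated procambium. LBD16 is below log2 5 on all BAP-treated cambium and transition cambium arrays.

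The genes whose log2 signal ran most like each GH3 gene were found by Pearson correlation over the 18 arrays among 1037 named genes. GH3.17 was followed most closely by UGT72E2, a glycosyltransferase of lignin precursors, with r = 0.95, and UGT72E2 also came first by Spearman's rho (0.97) and over the 16 ARR15::GFP arrays (r = 0.97). Its group means were 11.17 in ARR5::GFP cells, 8.72 to 9.46 in the 3 BAP-treated zones and 6.45 to 8.19 in the untreated ones. Next for GH3.17 came CXE18, the glycosyltransferase gene UGT73B5, KEU, which acts in cell plate formation, and the cytochrome P450 gene CYP78A9, with r of 0.90 to 0.92. For WES1 the first was ATG8F, an autophagy gene, with r = 0.77, before DER2.1, VHA-A1, a subunit of the vacuolar proton pump family, LBD16 and ALN, an allantoinase, with r of 0.75 to 0.76.

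For GH3.1 the nearest was the carboxypeptidase-like gene scpl25 (r = 0.85), before SEC, TRM21, CSLC04 and ATMAP65-6 (0.80 to 0.82). For GH3.3 they were the aldehyde dehydrogenase gene ALDH3F1 (r = 0.78), HPR, SFP1, ALDH11A3 and BCAT4 (0.76 to 0.78). The genes nearest to each depended on the arrays and the measure used. Over the 16 ARR15::GFP arrays none of the 5 genes nearest to GH3.1 kept a place among its first 5, for WES1 only VHA-A1 did and for GH3.17 UGT72E2 and UGT73B5 did, whereas for GH3.3 all 5 did, in another order. By Spearman's rho over the 18 arrays 3 of the 5 kept such a place for GH3.1, 3 for GH3.17, 1 for GH3.3 (ALDH3F1) and 1 for WES1 (VHA-A1). These are the highest of 1037 correlations over arrays in 7 groups and are given as a description.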

How the data were processed

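The authors deposited log2 signals of 22810 probe sets on 18 arrays, for which the submitters' processing notes name GCRMA. Its version, the arrays normalized together and the genome build were not given in the sources used here. The labels' protocols describe an RNA amplification of 2 cycles. The lowest value is 2.17 on each array, and 47.2% to 49.9% of an array's probe sets reach log2 5. Dim probe sets gather near that lowest value, so a group with all arrays below log2 5 gives only a bound, written "at least N-fold" against log2 5. The number of arrays limits the precision. Replicates of a group, which the labels call biological, correlated at 0.963 to 0.989 over probe sets.

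The 64 control probe sets were left out. A mean per group was fitted on the log2 values with limma 3.58.1 in R 4.3.3 (moderated variance with an intensity trend). The 16 ARR15::GFP arrays gave 13202 probe sets and 10 residual degrees of freedom. All 18 arrays, used for the ARR5::GFP comparisons, gave 13465 and 11. Calls used a Benjamini-Hochberg adjusted p under 0.05 over all probe sets kept, and all tests were two-sided. Probe sets with several genes (503) or not in the annotation used here (8730) named no gene. Of those with 1 gene, 13436 matched the reference table (TAIR10.1), and coordinates were not used here because the array's build is not named. Of 161 hand-listed genes, 34 have a probe set with 1 gene.

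The 4 genes, the gene lists and the tests were chosen with earlier results of these data known. The rule for named genes took the 4 genes, listed genes that passed in a comparison described, and the 5 genes most correlated with each over 18 arrays. Alternatives were another scaling, another filter on low values, no variance trend, only the groups compared, the replicate number as a block, and leaving out each array. The fits were tested on simulated data.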

Additional observations from a re-analysis of the deposited data

How the results depend on the processing

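Centring each array on its median, over all probe sets or over those kept, quantile normalization, a filter at log2 6 and no variance trend changed no call of the 4 GH3 genes. The count for untreated cambium against procambium was 1 of 4 (as reported: 2) with no filter, with the replicate block and with only the groups compared, because GH3.17 missed the threshold (adjusted p = 0.0843, 0.0511 and 0.0949). The count for untreated transition cambium against procambium was 0 of 4 (1) with no filter, with only the groups compared and with the procambium array numbered 3, because GH3.3 missed it (0.0637, 0.103 and 0.074). With only the groups compared, WES1 missed it in ARR5::GFP cells against untreated procambium (0.178) and GH3.17 passed for BAP in transition cambium (0.037). With no filter WES1 had 0.0631 in that ARR5::GFP comparison.

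The replicate numbers did not pair the arrays: same-numbered arrays of different groups had correlations of -0.52 to 0.28 in their deviations from the group means (2 of 36 over 0.1), and 0 of 16 arrays correlated best with their own number. One untreated procambium title carries both a 3 and a 2, so the block was run with each. The run with 3 and centring over the probe sets kept were chosen after seeing the data.

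Signs that turned were all of differences that did not pass. GH3.3 in BAP-treated transition cambium minus procambium was 0.04, and -0.021 with median centring over all probe sets, -0.041 over those kept and -0.037 with quantile normalization. WES1 in untreated cambium minus transition cambium was 0.05, and -0.071 with the replicate block. Leaving out each array in turn gave ranges that cross 0 for GH3.1 in untreated cambium minus procambium (-1.51 to 1.24), untreated transition cambium minus procambium (-0.088 to 2.66), the averaged BAP effect (-0.60 to 0.32) and the BAP effect in transition cambium minus that in procambium (-0.87 to 1.88). They also crossed 0 for GH3.3 in the BAP effect in procambium (-1.54 to 0.25), in cambium (-0.53 to 0.0067), their difference (-0.55 to 1.24) and BAP-treated transition cambium minus procambium (-0.29 to 0.51), for WES1 in untreated cambium minus transition cambium (-0.19 to 0.30), untreated cambium minus procambium (-0.67 to 1.37), untreated transition cambium minus procambium (-0.73 to 1.31) and the BAP effect in cambium minus that in procambium (-1.86 to 0.18), and for GH3.17 in BAP-treated cambium minus transition cambium (-0.29 to 0.14) and the BAP effect in transition cambium minus that in procambium (-0.24 to 0.69).

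Leaving out each array in turn, the number of the 4 genes called ran from 1 to 4 for ARR5::GFP cells against untreated procambium, 1 to 3 for BAP in cambium, 0 to 2 for BAP in transition cambium, 0 to 1 for BAP in procambium, for its difference between cambium and procambium and for the F test, 1 to 2 for untreated cambium against procambium, 0 to 1 for untreated transition cambium against procambium and 3 to 4 for ARR5::GFP cells against BAP-treated procambium. A lone array left in a group was taken to vary like the other groups.

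Over all probe sets, calls with only the groups compared were 2771 (as reported: 4720) for untreated cambium against procambium, 1637 (3720) for untreated transition cambium against procambium, 5 (100) for untreated cambium against transition cambium, 863 (1855) for BAP in procambium, 408 (696) for its difference between transition cambium and procambium, 1507 (4244) for ARR5::GFP cells against untreated procambium and 2351 (4224) against BAP-treated procambium. The BAP difference of transition cambium and procambium had 424 with the array numbered 3, and BAP-treated cambium against transition cambium had 82 (167) with no filter. Centring on the median of all probe sets moved the median difference for untreated cambium minus procambium to -0.19 (-0.01) and its calls to 2006 higher and 2869 lower (2424 and 2296), for untreated transition cambium minus procambium to -0.09 (0.12) with 1592 higher and 2123 lower (2066 and 1654), and for the BAP effect in transition cambium minus that in procambium to 0.13 (-0.02) with 349 higher and 319 lower (288 and 408). Only the groups compared was not run for the averaged BAP effect and the F test. Signals below log2 5 limit GH3.1 most, since 8 of its 18 arrays lie there.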
